A study of Mus musculus with 2 samples.

Results

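This section concerns 9 miRNA genes that lie in introns of neurotransmitter receptor genes, of 2202 annotated miRNA genes counted in mouse cortex. They were taken by gene symbol, through their host genes, with earlier results of these data known. The list is not complete, since 13 further miRNA genes lie inside a neurotransmitter receptor gene on the same strand. Mir490 lies in Chrm2, which encodes a muscarinic acetylcholine receptor, and Mir592 in Grm8, which encodes a metabotropic glutamate receptor. Mir764, Mir1912, Mir1264, Mir1298 and Mir448 lie in Htr2c, which encodes a serotonin receptor, and Mir224 and Mir452 in Gabre, which encodes a subunit of the GABA-A receptor. The tissue was left cerebral cortex of B6CASTF1/J mice, a first-generation cross of C57BL/6J with CAST/EiJ, at 18 to 20 months of age. There was 1 group, untreated as far as the labels say, with 2 libraries labelled as biological replicates of 1 technical replicate each, prepared from total RNA for fragments under 30 nucleotides. The labels give the sex as female in one field and male in another. They also give both libraries one donor identifier, so the spread between them may be technical, and no contrast of age, tissue or treatment can be made.

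A miRNA inside an intron can be cut from the same primary transcript as its host's messenger RNA, because the hairpin is released from the nascent RNA before or during splicing. Some intronic miRNAs have a promoter of their own, so host and miRNA need not move together. The 4 hosts act in different ways: Chrm2 and Grm8 couple to inhibitory G proteins and often act at presynaptic endings, Htr2c couples to the phospholipase C pathway and is known for its high level in the choroid plexus, and Gabre contributes to a chloride channel. The mature miRNA finds messages by pairing, mainly through its bases 2 to 8, called the seed.

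The mature sequences of the 4 most abundant genes are shown first because they carry most of the counts described here. They are those of RefSeq (GRCm38.p6, the same assembly as mm10), written from the 5′ end with the seed in capitals. All 9 genes matched an entry for a mature form, with 16 mature forms of 19 to 23 nucleotides. A hairpin entry was found for 8 of the 9, and not for Mir1264. The deposited counts are per gene, so how the reads divide between the 5p and the 3p form was not analysed here.
miR-490-5p: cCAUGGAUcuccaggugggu
miR-490-3p: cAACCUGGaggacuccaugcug
miR-1298-5p: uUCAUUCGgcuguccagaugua
miR-1298-3p: cAUCUGGGcaacugauugaacu
miR-592-5p: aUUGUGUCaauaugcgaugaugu
miR-592-3p: uCAUCACGuggugacgcaacau
miR-1264-3p: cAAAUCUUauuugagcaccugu

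The remaining mature forms, among them those of the Htr2c neighbours and of the Gabre pair, are given to show that genes of 1 host do not share a seed.
miR-448-5p: gAACAUCCugcauagugcugcc
miR-448-3p: uUGCAUAUguaggaugucccau
miR-764-5p: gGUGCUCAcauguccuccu
miR-764-3p: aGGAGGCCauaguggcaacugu
miR-1912-3p: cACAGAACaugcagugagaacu
miR-224-5p: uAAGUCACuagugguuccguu
miR-224-3p: aAAUGGUGcccuagugacuaca
miR-452-5p: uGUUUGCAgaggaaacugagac
miR-452-3p: uCAGUCUCaucugcaaagaggu

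The 16 forms had 16 different seeds. Among all mouse mature sequences of that table, 1 other form had the seed of a member: miR-7062-5p shares that of miR-764-3p, and its gene Mir7062 had 5 counts in replicate 1 and 12 in replicate 2, at 1.83 ± 1.22 CPM. Of the 409 expressed genes, 367 have a mature form in that table, and none of these 367 outside the members shared a seed with them. The other 42 were not compared. None of the 9 hairpins shares a stretch of 20 nucleotides with another annotated miRNA gene, whereas 1084 of all 2202 do and 87 of the 409 expressed genes do. Other places in the genome were not searched for copies.

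The hairpins of the 2 most abundant genes of different hosts show how the forms lie in the precursor, with the mature forms in capitals. That of Mir490 is 84 nucleotides long with a predicted folding energy of -32.3 kcal/mol, and that of Mir1298 is 98 nucleotides long with -46.3 kcal/mol. The median over all 2202 annotated genes was -33.2 kcal/mol at a median length of 89 nucleotides. Over the 409 expressed genes it was -35.5 kcal/mol at 82 nucleotides.
Mir490 hairpin: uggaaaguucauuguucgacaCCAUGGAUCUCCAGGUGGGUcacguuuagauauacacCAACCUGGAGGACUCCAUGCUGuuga
Mir1298 hairpin: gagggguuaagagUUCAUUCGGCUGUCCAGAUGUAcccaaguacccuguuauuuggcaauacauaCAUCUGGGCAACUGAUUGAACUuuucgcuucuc

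Of the 9 genes, 7 were expressed, meaning 2 CPM or more in both libraries, where CPM (counts per 1000000) is a gene's sense count scaled to the sense total of all miRNA genes in its library. Among all 2202 annotated miRNA genes 18.6% passed the same rule, and among the 969 that lie inside a protein-coding gene on the same strand 22.5% did. The share of members is above both, but these genes were chosen with results of these data known, and the difference was not tested. The shares are also not like for like. Of the 2202 genes 1084 share a stretch of 20 nucleotides with another, none of the 9 does, and reads with several places are not listed by gene. The members not expressed were Mir1912 and Mir452. The summed level of the 9 genes was 531.1 CPM in replicate 1 against 555.4 CPM in replicate 2, or 543.2 ± 17.2 CPM (SD, n = 2). Their share of all sense counts was 0.0531% in replicate 1, with an exact 95% interval from 0.0511% to 0.0551%, and 0.0555% in replicate 2, with one from 0.0534% to 0.0578%. Intervals cover counting error only.

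These were mostly low genes. The median level of the 9 was 12.9 CPM, beside 0 CPM over all 2202 genes, and 1 of them, Mir490, lay above the median of the 409 expressed genes, 88.9 CPM. Expressed members had a median of 21.2 CPM, against 38.5 CPM for the 218 expressed genes inside a protein-coding host. Levels are compared as read counts, since a short read covers a mature miRNA whole. Whether the library preparation captures different miRNAs equally was not tested, so ratios between genes are ratios of reads. Dividing them by the length of the annotated gene left the order of the 9 genes as it was.

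**Figure D1:**
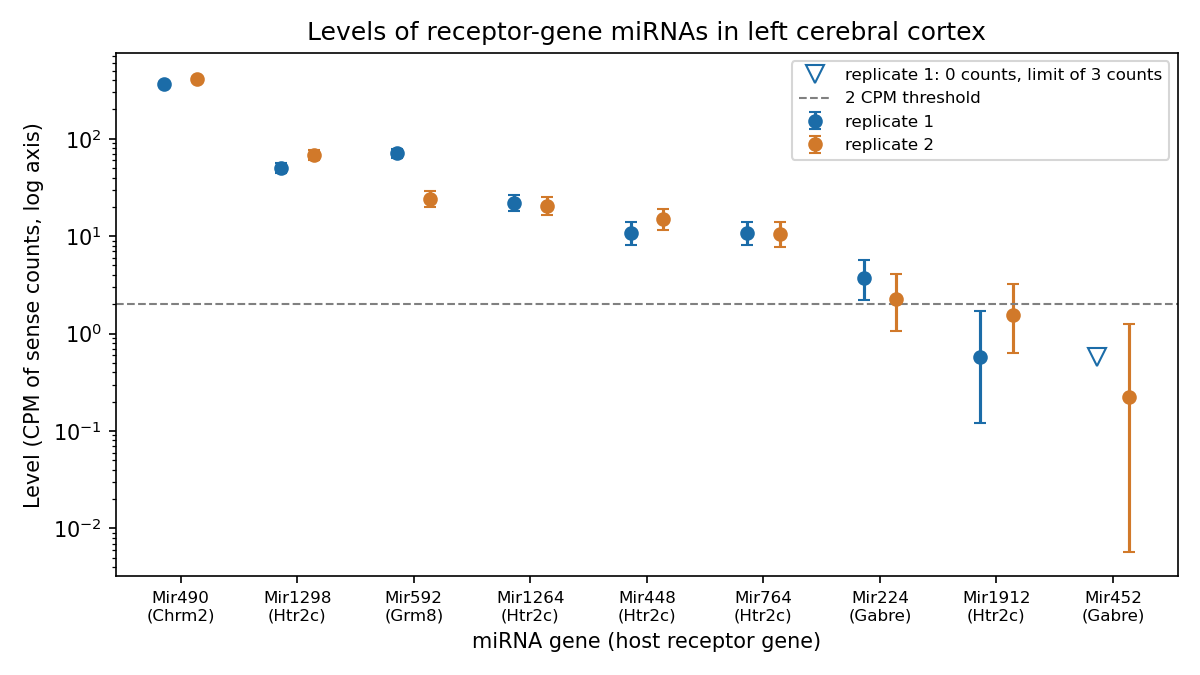
Level of each gene in CPM of sense counts (log axis), with the host receptor gene in parentheses; points are the 2 libraries and bars exact Poisson 95% intervals of the count. Mir490 stood highest at 362.3 and 413.2 CPM, and Mir1912 and Mir452 lay below the dashed line at 2 CPM; the open triangle is the limit that 0 counts of Mir452 allow.

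Mir490, the miRNA of the muscarinic receptor gene, was the most abundant of them. It lies on chromosome 6 from 36421742 to 36421825 (mm10, plus strand), in intron 2 of the coding transcript of Chrm2, 32990 nucleotides after the upstream exon. The product has been studied mainly as a tumour suppressor in human cells. It had 1872 counts in replicate 1 and 1843 in replicate 2, levels of 362.3 CPM and 413.2 CPM, or 387.8 ± 36.0 CPM (SD, n = 2). This placed it 131st of the 2202 genes by mean level. It alone made up 68.2% of the members' counts in replicate 1, with an exact 95% interval from 66.4% to 70.0%, and 74.4% in replicate 2, with one from 72.6% to 76.1%. The genes nearest to it in mean level were Mir672 above, at 406.9 ± 18.1 CPM, and Gm23450 below, at 386.9 ± 108.9 CPM.

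Mir592, the miRNA of the glutamate receptor gene, had the largest ratio between the libraries among the 7 expressed members. It lies on chromosome 6 from 27936655 to 27936750 (minus strand), in an intron of 218685 nucleotides in 4 of the 5 coding transcripts of Grm8 and outside the fifth. It had 366 counts in replicate 1 and 108 in replicate 2, levels of 70.8 CPM and 24.2 CPM, or 47.5 ± 33.0 CPM (SD, n = 2). Replicate 1 was thus the higher library, and the counting intervals of the levels, 63.8 to 78.5 CPM and 19.9 to 29.2 CPM, did not overlap. Its nearest genes in mean level were Mir214, with 404 counts in replicate 1 against 77 in replicate 2, and Mir491, at 46.2 ± 12.3 CPM.

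The 5 Htr2c genes together had 487 counts in replicate 1 and 515 in replicate 2, summing to 94.3 CPM and 115.5 CPM, or 104.9 ± 15.0 CPM (SD, n = 2). They lie on chromosome X on the plus strand, and all 5 are intronic in each of the 4 coding transcripts of Htr2c. Counted from the start of the transcript Htr2c-201, which has 6 exons, Mir764 lies 39.8 kb, Mir1912 47.0 kb, Mir1264 48.1 kb and Mir1298 102.4 kb in, all in intron 2. Mir448 lies 195.8 kb in, in intron 4.

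Mir1298, the highest of the 5 and a reported growth suppressor in human tumour cells, is at 147064905 to 147065002. It had 259 counts in replicate 1 and 302 in replicate 2, or 58.9 ± 12.4 CPM (SD, n = 2), and stood 221st of all genes. Mir1264, at 147010601 to 147010686, had 113 and 92 counts, or 21.2 ± 0.879 CPM. The levels of these 2 genes did not overlap across the libraries, and Mir1298 had 2.29 times the counts of Mir1264 in replicate 1 (exact 95% interval 1.83 to 2.88) and 3.28 times in replicate 2 (2.59 to 4.19).

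Mir448, at 147158210 to 147158321, is known in mouse from adipocyte differentiation. It had 56 and 67 counts, or 12.9 ± 2.96 CPM. Mir764, at 147002259 to 147002366, which has been studied in mouse osteoblasts, had 56 and 47 counts, or 10.7 ± 0.213 CPM. The count of Mir448 was equal to that of Mir764 in replicate 1 and 1.43 times as large in replicate 2 (exact 95% interval 0.967 to 2.12), so their order was not resolved.

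Mir1912, at 147009441 to 147009527, was close to the detection limit. It had 3 counts in replicate 1 and 7 in replicate 2, levels of 0.581 CPM and 1.57 CPM. Mir1264 begins 1.07 kb after it in the same intron and had 37.7 times its counts in replicate 1 (exact 95% interval 12.6 to 185.4) and 13.1 times in replicate 2 (6.13 to 33.6). Genes of 1 intron thus differed in read counts by more than counting error in both libraries. How far unequal capture of the 2 miRNAs adds to this was not tested.

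**Figure D2:**
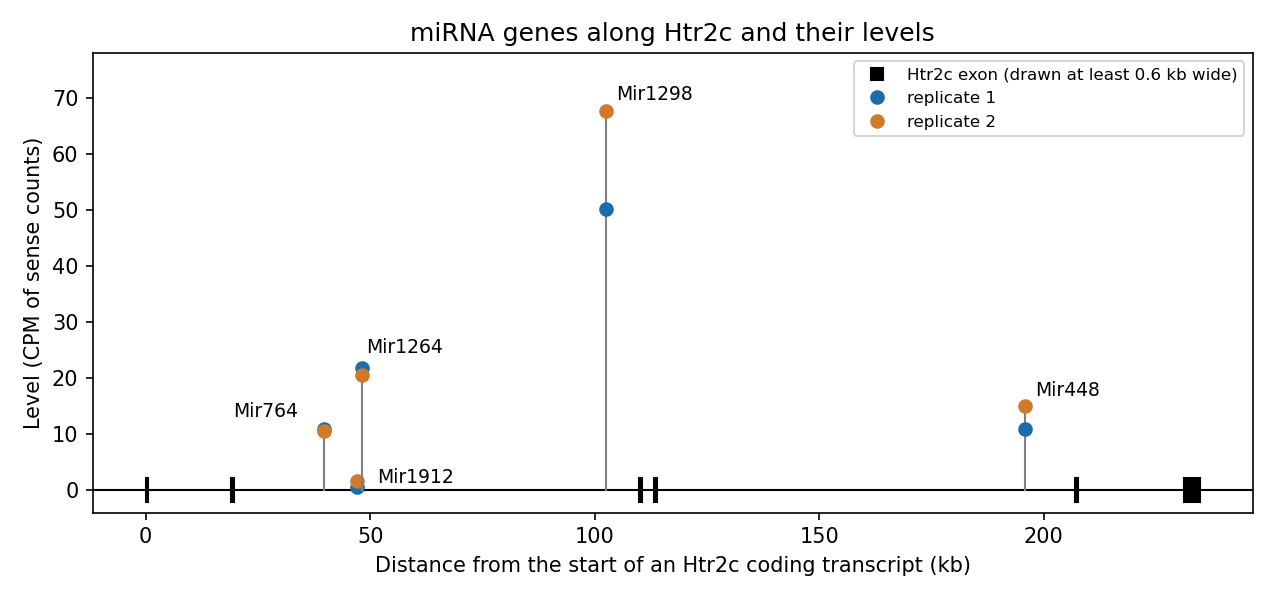
Position of the 5 miRNA genes in kb from the start of the coding transcript Htr2c-201 (black boxes: its 6 exons) against their level in CPM of sense counts in each library. Mir1298, 102.4 kb in, stood above the other 4 in both libraries, and Mir1912 and Mir1264, 1.07 kb apart, were at 1.08 and 21.2 CPM on average.

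Shares within the Htr2c genes do not depend on how the libraries are scaled. Mir1298 made up 53.2% of the 5 genes' counts in replicate 1 (48.6% to 57.7%, exact 95% interval) and 58.6% in replicate 2 (54.3% to 62.9%). Mir1264 held 23.2% and 17.9%, Mir448 11.5% and 13.0%, Mir764 11.5% and 9.13%, and Mir1912 0.616% and 1.36%. For each of the 5 genes the intervals of the 2 libraries overlapped.

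**Figure D3:**
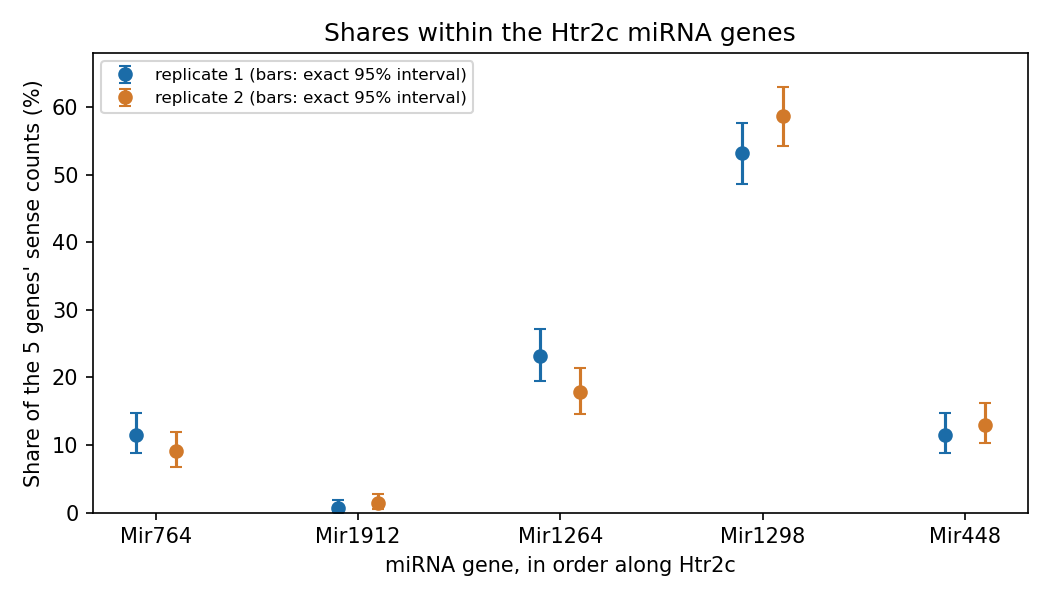
Share of each gene in the summed sense counts of the 5 Htr2c genes, in percent, for each library, with exact binomial 95% intervals and genes in order along Htr2c. The intervals of the libraries overlapped for all 5 genes, and Mir1298 held 53.2% and 58.6%.

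GENCODE places 2 further miRNA genes of predicted name inside Htr2c on the same strand. Gm22650, 2.75 kb before Mir764, had 9 counts in replicate 1 and 6 in replicate 2, and Gm24627 had 0 in both. Neither reached 2 CPM in both libraries.

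The Gabre genes had the lowest summed level of the 4 hosts, 3.07 ± 0.856 CPM (SD, n = 2). Both genes lie on chromosome X on the minus strand in intron 6 of Gabre, 1.11 kb apart. Mir224, at 72261031 to 72261112, is known in mouse from the response of ovarian granulosa cells to transforming growth factor. It had 19 counts in replicate 1 and 10 in replicate 2, levels of 3.68 CPM and 2.24 CPM, or 2.96 ± 1.01 CPM (SD, n = 2). Its lower counting limit was 1.08 CPM in replicate 2, below the threshold of 2 CPM, so its place among the expressed genes is not firm at this depth. Mir452, at 72262224 to 72262308, which has been studied in mouse neural crest cells, had 0 counts in replicate 1 and 1 in replicate 2. The limit of 3 counts puts it at up to 0.581 CPM in replicate 1, and the exact two-sided 95% interval reaches 0.714 CPM.

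By mean level the order was Mir490, Mir1298, Mir592, Mir1264, Mir448, Mir764, Mir224, Mir1912 and Mir452. The ranges of the 2 libraries overlapped for Mir1298 and Mir592, where Mir592 was higher in replicate 1 and Mir1298 in replicate 2, and for Mir448 and Mir764. The other 6 neighbouring pairs did not overlap. For Mir1912 over Mir452, at 3 and 0 counts in replicate 1, no ratio was formed in that library, so their order there was not resolved. Within replicate 2 alone, however, the counting intervals of the ratio included 1 for Mir592 over Mir1264 (1.17, 0.881 to 1.57), Mir1264 over Mir448 (1.37, 0.991 to 1.91), Mir224 over Mir1912 (1.43, 0.491 to 4.42) and Mir1912 over Mir452 (7, 0.899 to 315.5).

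The genes nearest in mean level to the 4 lower expressed members, above and below, were Mir103-2 and Mir8114 for Mir1264, Mir32 and Mir3070b for Mir448, Mir34b and Gm24589 for Mir764, and Mir6928 and Mir196b for Mir224. Each was within 5% of the member's mean level. Mir1298 stood between Mir29b-1, at 58.9 ± 7.55 CPM, and Mir122, the hepatocyte miRNA, at 57.3 ± 3.90 CPM.

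The libraries were compared by the log2 ratio of replicate 1 to replicate 2, scaled by TMM totals with 0.5 added to each count. This compares 2 libraries of 1 group and not 2 conditions, so no test was made. Relative to plain sense totals, TMM lowered all these ratios by the same amount, a shift of -0.13. Of the 438 genes whose counts summed to 20 or more over both libraries, 19.2% were over 2-fold higher in replicate 1 and 7.99% over 2-fold higher in replicate 2. Of the 9 members, the 7 expressed ones reached that sum, and 1 of these 7 was over 2-fold higher in replicate 1 and 0 in replicate 2. A share of 1 in 7 is near that of all genes.

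That gene was Mir592, with a log2 ratio of 1.41 (exact 95% interval 1.11 to 1.74), or 2.67-fold. Mir490 had -0.32 (-0.41 to -0.23), Mir1298 -0.56 (-0.81 to -0.32) and Mir448 -0.60 (-1.14 to -0.07), all higher in replicate 2 by less than 2-fold. For Mir764 (-0.09), Mir1264 (-0.05) and Mir224 (0.55) the counting interval included 0, and on plain sense totals the ratios of Mir764 and Mir1264 were 0.04 and 0.08, of the opposite sign. Mir1912 had -1.44 (-4.15 to 0.57) from 3 and 7 counts. The median absolute log2 ratio was 0.55 over the 7 members and 0.59 over all 438 genes.

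**Figure D4:**
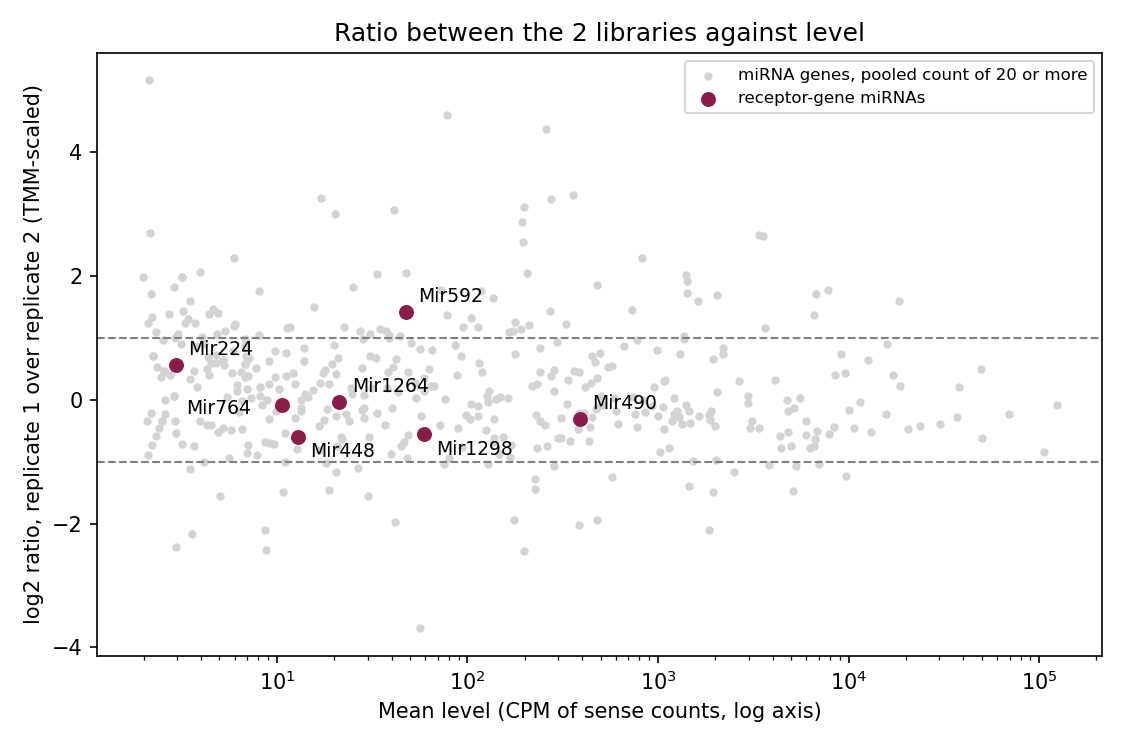
TMM-scaled log2 ratio of replicate 1 over replicate 2 against mean level in CPM (log axis) for the 438 miRNA genes with at least 20 counts in all (grey) and the 7 receptor-gene miRNAs among them (dark points). Mir592, at 1.41, lies beyond the dashed lines at 2-fold, and the other 6 lie between them.

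Of the members, 7 lie on chromosome X, and 5 of these 7 were expressed, beside 26.1% of the 142 miRNA genes of that chromosome. The 39 X-linked genes with at least 20 counts in all had a median log2 ratio of -0.26, beside 0.08 over all 438. The parental origin of the reads was not analysed here.

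Markers of other cell types are set beside these values. Expressed markers of choroid plexus and ciliated epithelium numbered 4 of 7. All 7 had a summed level of 726.0 CPM in replicate 1 against 1113 CPM in replicate 2 (log2 ratio -0.75). Mir34c differed most in level between the libraries, at 163.0 and 604.3 CPM (-2.02). Mir204, at 532.6 and 467.0 CPM (0.06), did not share the direction of the sum, nor did Mir211, with only 11 and 7 counts. The other expressed genes were Mir34b (-1.48) and Mir449a (-0.24), and Mir449b was at 0 in both libraries. The Htr2c sum had a log2 ratio of -0.42 (exact 95% interval -0.60 to -0.24), and its relation to these markers was not tested. The smooth muscle and mural cell list summed to 5077 and 9896 CPM, and muscarinic receptors are also found in such cells. Of its 4 genes 2 were expressed, Mir143 (-1.04) and Mir145a (-1.95). The other 2, both Mir133a genes, were at 0. They are better known from striated muscle, so they are not markers of mural cells. The heart and striated muscle list summed to 26.7 and 78.9 CPM with 2 of 7 expressed and 3 at 0, and the liver marker Mir122 was at 54.6 and 60.1 CPM. The part of these cells in the levels of Mir490 and of the Htr2c genes was not tested, and in whole tissue fewer cells of a type and less RNA per cell cannot be told apart. Of the 11 markers of cortical neurons 8 were expressed, summing to 36826 and 32458 CPM. The 3 that were not, the Mir124a genes, had at most 21 counts each. The Mir124a genes share a stretch of 20 nucleotides with one another, as the Mir133a genes do, and as Mir1a-1 and Mir1a-2 of the striated muscle list do. Reads with several places are not listed by gene, so the low or 0 counts of these genes do not show a lack of expression. Among the neuron markers the Mir128, Mir138 and Mir9 genes also share such a stretch within each family, so their counts may be incomplete. Mir592 was 1 of many genes over 2-fold higher in replicate 1, 19.2% of the 438 with a pooled count of 20 or more. Among the others were 4 miRNAs known from epithelial and sensory cells. Mir200b was at 493.7 and 21.7 CPM, Mir429 at 500.3 and 48.7 CPM, Mir183 at 653.6 and 60.5 CPM, and Mir182 at 343.4 and 42.8 CPM. These 4 were chosen after their values were seen, so no conclusion about Mir592 is drawn from them. Their part in its level was not tested.

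Beside these 9, GENCODE holds 13 miRNA genes inside a neurotransmitter receptor gene on the same strand. Of these 13, 1 was expressed, beside 18.6% of all 2202 annotated miRNA genes. That gene was Mir346, in Grid1, which encodes a glutamate receptor of the delta type, on chromosome 14 from 34894609 to 34894706. It had 11830 counts in replicate 1 and 2329 in replicate 2, levels of 2290 CPM and 522.2 CPM, above every member in both libraries. Its log2 ratio of 2.00 was on the same side as that of Mir592. Mir8115, in P2rx7, had 9 and 0 counts. No count was seen for 9 of the 13, among them Mir105 and Mir767 in the GABA-A receptor gene Gabra3. Over all 2202 genes, 1431 had no count.

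The counts rest on 5166667 sense counts in replicate 1 and 4459993 in replicate 2. With a limit of 3 counts per library, a gene without counts may have had up to 0.581 CPM (replicate 1) or 0.673 CPM (replicate 2). None of the 9 genes had an antisense count, and for all 9 the unstranded count was equal to the sense count. Reads with several places in the genome, 41.8% and 46.4% of all reads, are listed apart and not by gene.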

How the data were processed

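MicroRNA sequencing libraries of 2 replicates of 1 group were analysed. The authors deposited, for each library, read counts per miRNA gene without strand, on the sense strand and on the antisense strand, not normalized; per the deposited file notes they are on mm10 with GENCODE M21. The aligner was not given in the sources used here, nor was the counter. Lines that name no gene (65.2% and 65.1% of reads) stayed out of library sizes. All 2202 identifiers matched GENCODE M21, from which symbols, coordinates and introns came. Levels are CPM of sense counts. Ratios used edgeR 4.0.16 TMM totals, with DESeq2 1.42.0 size factors as an alternative. A check on simulated counts used plain totals centred on the genes left unchanged, so it did not test the TMM or DESeq2 scaling. Intervals are exact 95% (Poisson for levels, Clopper-Pearson for shares and ratios; scipy 1.17.1). Folding used ViennaRNA 2.7.2. Named genes were the members, their nearest genes in level, genes within 50 kb or with the same seed, miRNA genes inside other receptor genes with at least 3 counts in all, and cell type markers (choroid plexus, neuron, mural, striated muscle, liver). Mir105, Mir767, Mir200b, Mir429, Mir183 and Mir182 fall outside that rule and were chosen after seeing their values. Members and lists were chosen with earlier results of these data known. The labels name 2 biological replicates but one donor identifier, so whether the libraries came from separate animals is not settled and their SD may be technical. Alternatives were other thresholds, scalings, count columns, added counts, count minimums and leaving out each library.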

Additional observations from a re-analysis of the deposited data

How the results depend on the processing

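The number of expressed members, 7 of 9, was 7 at a threshold of 1 CPM, with the unstranded column, with TMM or DESeq2 totals and in each library alone, and 6 at 5 CPM and per all reads of the library. The summed level of 543.2 CPM was 588.0 CPM with the unstranded column and 189.3 CPM when scaled to all reads, both by construction of the total, and 531.1 to 555.4 CPM with 1 library left out. The 1 member past 2-fold, Mir592, had log2 ratios of 1.34 to 1.54 under the alternatives. That number was 2 with a pooled count of 10 or more and 3 with no minimum, where Mir1912 and Mir452, with 10 and 1 pooled counts, enter. With 1 library left out Mir592 was at 24.2 or 70.8 CPM, and no other expressed member moved by over 1.5 times from its mean. No paired analysis was possible because the labels give 1 group. Depth limits Mir224, Mir1912 and Mir452.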
